A study of Mus musculus with 7 samples.

Results

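Endothelial cells line blood and lymphatic vessels, and 10 genes commonly used to recognise them were followed here in mouse skin. They were taken by gene symbol and not by a threshold on their values, though with earlier results of these data known. Among the 23185 named genes of the deposited table, all 10 were found. Of these, 6 are used for the endothelium of blood vessels or of all vessels (Pecam1, Cdh5, Kdr, Tek, Tie1 and Vwf) and 4 for lymphatic vessels (Lyve1, Prox1, Flt4 and Pdpn). The samples were lesional skin of male C57BL/6 mice aged 9 weeks, which were ox40l-/- (OX40L knockout, 4 arrays) or ox40l+/+ (OX40L wild type, 3 arrays). Every animal had been injected with bleomycin for 3 weeks, a common way to induce skin fibrosis, so no array shows skin without bleomycin. OX40L, encoded by Tnfsf4, is a ligand of the TNF family that costimulates T cells through its receptor OX40. The series title concerns inflammation-driven fibrosis, and the comparison asks whether transcripts of the vessel lining differed with OX40L genotype under the same treatment. The labels do not say how the knockout allele was made.

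Vessel formation is directed largely by secreted growth factors that act on receptor tyrosine kinases of endothelial cells. Vascular endothelial growth factors (VEGFs) act on Kdr in blood endothelium and on Flt4 in lymphatic endothelium, and angiopoietins act on Tek, with which the related receptor Tie1 associates. Prox1 is the transcription factor that specifies lymphatic identity. Loss of small vessels is a known feature of fibrotic skin disease.

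Values are log2 expression values, so a difference of 1 is a 2-fold change, and each gene was measured by 1 probe set per array. The design text counts 3 and 4 mice, 1 for each array. None of the 10 genes passed the test for a genotype difference. In limma, 0 of 10 had an adjusted p under 0.05, where 0.00431% of all genes did, and 0 of 10 had an unadjusted p under 0.05, where 1.88% of all genes did. On the deposited scale the genotypes overlapped in all 10 genes, while they did not overlap in 1.91% of all genes. Mean values were higher in knockout for 5 of the genes and lower for the other 5, and the signs of Prox1 and Tie1, both close to 0, turned under other scalings of the arrays. The median difference was -0.01 over the blood endothelial genes and 0.11 over the lymphatic genes, against 0.01 over all genes. In bulk skin, fewer cells of a type and less RNA per cell cannot be told apart.

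The arrays were uneven. The SD over all probe sets ran from 1.22 on wild type replicate 3 to 1.72 on wild type replicate 1, and lay between 1.38 and 1.48 on the 5 remaining arrays. Keratinocyte markers summarised the unevenness, with a mean deviation of 1.21 from their own averages on wild type replicate 1 and of -1.005 on replicate 3, and of -0.18 to 0.15 elsewhere. Of the genes that define skin, Krt14, the basal epidermal keratin, was at 9.54 to 10.94 on all arrays. Krt5 ran from 6.09 to 8.48. Of the fibroblast genes, Col1a1 ran from 4.99, on wild type replicate 3, to 7.05, on wild type replicate 1. Pdgfra was lower, at 3.29 to 3.815, above 37.3% to 57.8% of probe sets. Tnfsf4 was at 2.53, 2.60 and 3.65 in wild type, and the knockout arrays ran from 2.81 to 3.35. Where its probe set lies relative to the deletion was not known here, so Tnfsf4 does not check the labels.

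**Figure D1:**
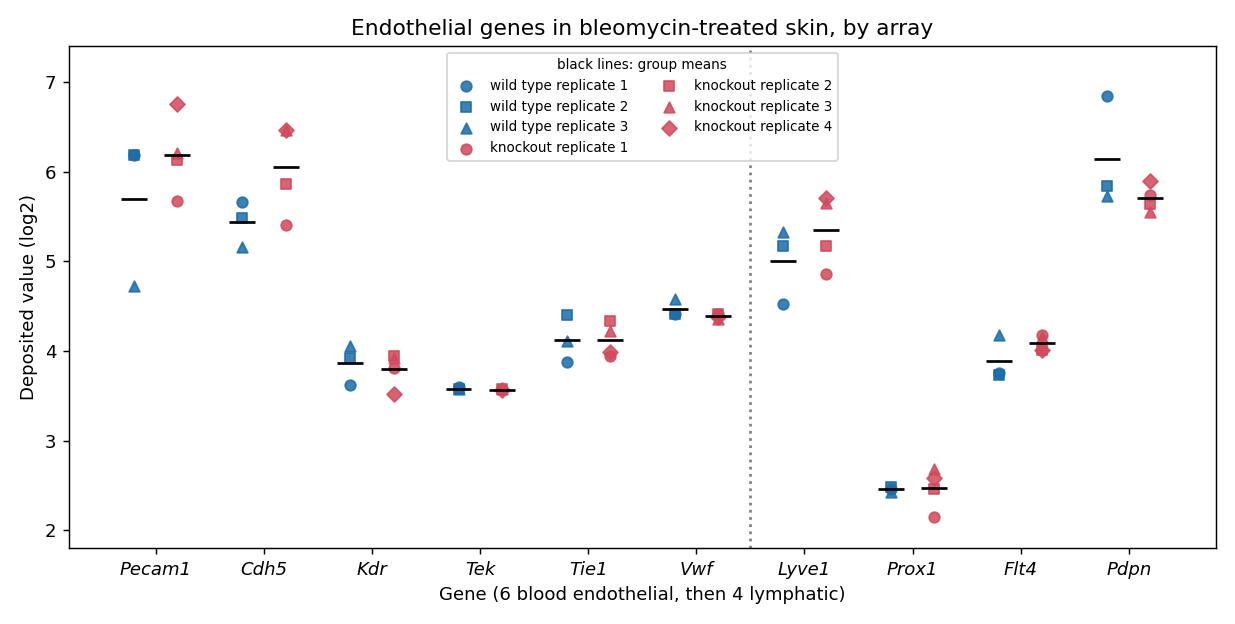
Deposited log2 value (vertical axis) of each of the 10 endothelial genes on each array, with wild type in blue, knockout in red, a marker shape for each replicate and black lines at the group means. On this scale the genotypes overlap for every gene (Cdh5 separates after quantile normalization), and the widest excursions are Pecam1 on wild type replicate 3 (4.72) and Pdpn on wild type replicate 1 (6.85).

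The 2 adhesion molecules of endothelial junctions had the largest positive differences. Cdh5 encodes VE-cadherin, which holds endothelial cells together and is restricted largely to them. Its values were 5.67, 5.48 and 5.16 on wild type replicates 1 to 3 and 5.41, 5.86, 6.46 and 6.46 on knockout replicates 1 to 4. Knockout replicates 2, 3 and 4 lay above every wild type array, and knockout replicate 1 lay within the wild type range. The difference was 0.61 (SE 0.29, 95% confidence interval -0.08 to 1.30), or 1.53-fold, with group values of 6.05 ± 0.51 (SD, n = 4) and 5.44 ± 0.25 (SD, n = 3). In limma the unadjusted p was 0.0748 and the adjusted p 0.9995.

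The placing of Cdh5 depended on how the arrays were scaled. After quantile normalization was applied again, which gives all arrays the same distribution, wild type lay between 5.24 and 5.48 and knockout between 5.50 and 6.53. The genotypes then did not overlap, which was so, in the same direction, for 2.56% of all genes. The difference was 0.70 on that scale (unadjusted p = 0.0252 and adjusted p = 0.999 in limma). Over all alternatives tried, the Cdh5 difference stayed positive, between 0.47 and 0.82.

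Pecam1 encodes CD31, an adhesion molecule of endothelial junctions that platelets and many leukocytes also carry. It was at 6.19, 6.19 and 4.72 in wild type and at 5.67, 6.13, 6.20 and 6.76 in knockout. A single wild type array was low, and the other wild type arrays lay inside the knockout range. The difference of 0.49 (SE 0.42, interval -0.49 to 1.47, limma adjusted p = 0.9995) fell to 0.0018 without wild type replicate 3. It rose to 0.69 after quantile normalization and to 0.66 with the array SD as a covariate. In the covariate fit the unadjusted p was 0.0451 and the adjusted p 0.634 in limma. There 7.61% of all genes had an unadjusted p under 0.05. On wild type replicate 3 some marker lists of other cell types were low. Mean deviations there were -1.14 for skeletal muscle, -0.92 for dermal fibroblasts, -0.57 for adipocytes and -0.24 for macrophages. Platelet and megakaryocyte markers, at 0.12, T cell markers, at 0.014, and nerve markers, at -0.093, were not low to that extent. Ptprc, the pan-leukocyte phosphatase CD45, was at 4.23 there and at 5.14 to 5.98 on the other arrays. Their part in the Pecam1 values was not tested.

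Red cell and platelet transcripts were set beside these genes because vessels carry blood. Hbb-b1, a beta-globin chain, ranged from 6.34 to 6.62 over wild type arrays and from 9.27 to 10.28 over knockout arrays, and it was the 1 gene of all tested that passed the adjusted threshold (limma adjusted p = 0.0468). The other 3 red cell markers measured had differences of 0.07 (Alas2), 0.325 (Epb42) and -0.11 (Slc4a1), each with a limma adjusted p of 0.9995. Pf4, a platelet chemokine that macrophages can also make, was at 6.61, 7.94 and 6.61 in wild type, with knockout arrays between 7.18 and 7.36. Itga2b, the platelet integrin subunit, ranged from 2.83 to 3.78 over wild type arrays and from 3.19 to 3.51 over knockout arrays. Among the platelet and megakaryocyte markers, 8 of 9 measured genes had higher means in knockout, as did 11998 of all 23185 genes. In limma, 0 of 9 passed either threshold. The mean deviation of this list was low in a single array, wild type replicate 1 (-0.47). The values of replicates 2 and 3 of that genotype, 0.148 and 0.124, fell inside the span of the knockout arrays, -0.022 to 0.179. The part of blood content in the Cdh5 and Pecam1 values was not tested.

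The receptor kinases of blood endothelium had small differences between genotypes on the deposited scale. Kdr, the main VEGF receptor of blood endothelium, was at 3.62, 3.92 and 4.05 in wild type and at 3.81, 3.95, 3.92 and 3.53 in knockout, a difference of -0.06 (interval -0.46 to 0.34). Tie1, an orphan receptor that modulates Tek, was at 3.88, 4.40 and 4.10 in wild type and at 3.94, 4.33, 4.22 and 3.99 in knockout, a difference of -0.007 (interval -0.43 to 0.41) that moved to -0.28 without wild type replicates 1 and 3 and to -0.26 with array weights. Tek, the angiopoietin receptor also called Tie2, lay between 3.56 and 3.60 on all arrays, and its difference was -0.012 (interval -0.28 to 0.25). The limma adjusted p was 0.9995 for each of these 3 genes. As a ratio of knockout to wild type, the intervals ran from 0.725 to 1.26 for Kdr and from 0.743 to 1.33 for Tie1. Kdr lay above 49.4% to 60.8% of probe sets on its arrays, Tek above 44.0% to 53.3% and Tie1 above 59.2% to 71.6%. Without detection calls, whether these genes were above background is unknown.

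Tek and Vwf carried little information about single arrays. Tek took only 3 distinct values on the 7 arrays, and its SD over all arrays, 0.012, was above that of 0.129% of all genes. Vwf, the von Willebrand factor that endothelial cells store and release to bind platelets, took 4 distinct values. It was at 4.41 on wild type replicates 1 and 2 and on knockout replicates 1 and 2, at 4.58 on wild type replicate 3, and at 4.36 and 4.38 on knockout replicates 3 and 4. Its difference was -0.08 (interval -0.36 to 0.21; limma adjusted p = 0.9995). Exact ties on at least 2 arrays occurred in 7 of the 10 endothelial genes and in 54.3% of all genes. The probe summary of RMA, as usually run, can return such ties, so they are no measurement of constancy.

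Promoters of Tie1 and Tek are shown because these partner receptors had the smallest differences among the blood endothelial genes, and that of Pdpn because 1 array stood above the other 6. The sequences are the 250 bases before the gene start from RefSeq, build GRCm38.p6, on the strand of the gene: chr4:118489850-118490099 (minus) for Tie1, chr4:94739039-94739288 (plus) for Tek and chr4:143299565-143299814 (minus) for Pdpn. Capitals mark GGAA or its reverse complement TTCC, the core letters bound by ETS factors, a family that includes regulators of endothelial genes.
Tie1: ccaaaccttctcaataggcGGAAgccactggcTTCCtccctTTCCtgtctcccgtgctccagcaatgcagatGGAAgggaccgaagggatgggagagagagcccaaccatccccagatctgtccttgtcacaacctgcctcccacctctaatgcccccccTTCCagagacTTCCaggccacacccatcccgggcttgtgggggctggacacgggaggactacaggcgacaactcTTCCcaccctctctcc
Tek: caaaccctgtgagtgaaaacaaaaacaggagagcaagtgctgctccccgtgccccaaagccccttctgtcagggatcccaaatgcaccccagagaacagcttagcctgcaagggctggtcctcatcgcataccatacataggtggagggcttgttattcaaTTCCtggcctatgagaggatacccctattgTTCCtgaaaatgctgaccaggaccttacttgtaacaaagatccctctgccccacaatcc
Pdpn: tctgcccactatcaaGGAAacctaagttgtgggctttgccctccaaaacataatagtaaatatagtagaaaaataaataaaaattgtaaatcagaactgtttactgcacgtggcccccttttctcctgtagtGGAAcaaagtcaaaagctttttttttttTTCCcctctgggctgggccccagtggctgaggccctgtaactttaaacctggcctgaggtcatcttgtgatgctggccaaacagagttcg
The Tie1 window held 7 matches, the Tek window 2 and the Pdpn window 3. Over the 32851 windows of the same length in the table, 93.5% held at least 1 match, the median was 3, and 3.82% held at least as many as Tie1. The SOX core ACAAT, searched on both strands, was found 2 times in Tek, 1 time in Pdpn and 0 times in Tie1, and 27.7% of all windows held it. These letters are a description of the windows and not evidence of binding. Promoter windows of 6 of the 10 genes were matched by symbol.

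**Figure D2:**
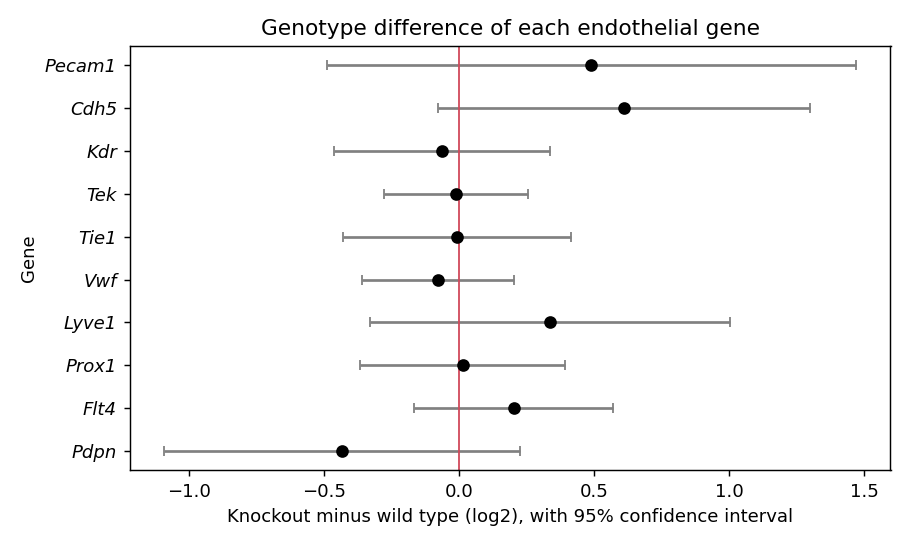
Knockout minus wild type difference (horizontal axis, log2) of each endothelial gene, with points at the limma estimate and bars for its 95% confidence interval. All 10 intervals include 0, and they are widest for Pecam1 (-0.49 to 1.47) and narrowest for Tek (-0.28 to 0.25).

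Among lymphatic genes, Lyve1 leaned towards knockout and Pdpn towards wild type, neither beyond the spread between arrays. Lyve1 encodes a hyaluronan receptor of lymphatic endothelium that some tissue macrophages also express. It was at 4.53, 5.17 and 5.32 in wild type and at 4.85, 5.17, 5.65 and 5.70 in knockout. On the deposited scale, knockout replicates 3 and 4 were above every wild type array, and wild type replicate 1 was the lowest of all. After quantile normalization no knockout array was above every wild type array. Wild type then ran from 4.39 to 5.706 and knockout from 4.92 to 5.702. The difference on the deposited scale was 0.34 (SE 0.28, interval -0.33 to 1.005, limma adjusted p = 0.9995). When 1 array was dropped, it was smallest for wild type replicate 1 (0.099) and largest for knockout replicate 1 (0.50). Among macrophage markers, 9 of 11 had lower means in knockout, where 11187 of all 23185 genes did, and 0 of 11 passed either threshold in limma. The mean deviation of that list ran from -0.245 to 0.257 over wild type arrays. It was -0.288, -0.178, 0.011 and 0.2 on knockout replicates 1 to 4, so the genotypes overlapped. The part of macrophages in the Lyve1 values was not tested. Adgre1, the macrophage receptor F4/80, ranged from 4.83 to 4.97 over wild type arrays and from 4.25 to 4.84 over knockout arrays.

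Pdpn encodes podoplanin, a mucin-type membrane glycoprotein of lymphatic endothelium that fibroblasts and keratinocytes also make. It was at 6.85, 5.84 and 5.73 in wild type and at 5.74, 5.64, 5.54 and 5.90 in knockout. Wild type replicate 1 stood above all other arrays, and the remaining 6 arrays overlapped closely. The difference was -0.43 (SE 0.28, interval -1.09 to 0.23, limma adjusted p = 0.9995). Of the runs that dropped 1 array, the one lacking wild type replicate 3 gave the largest difference, -0.64. The one lacking wild type replicate 1 gave the smallest, -0.079. On wild type replicate 1 the keratinocyte list stood at 1.21, the hair follicle list at 2.86 and the melanocyte list at 2.25 in mean deviation. Krt5 was at 8.48 there, with all other arrays between 6.09 and 6.72. The part of these lists in the Pdpn value was not tested. Its place within the array was less unusual, since Pdpn lay above 94.1% of probe sets on wild type replicate 1, above 94.3% on replicate 3 and above 89.6% to 91.6% on the other 5 arrays.

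Flt4 and Prox1, the genes most closely tied to lymphatic identity here, differed little. Flt4, the receptor of the lymphatic growth factors Vegfc and Vegfd, was at 3.76, 3.73 and 4.17 in wild type and at 4.18, 4.01, 4.16 and 4.01 in knockout. The knockout arrays were close together and above wild type replicates 1 and 2, while wild type replicate 3 lay among them. Its difference was 0.20 (SE 0.16, interval -0.17 to 0.57, limma adjusted p = 0.9995). Dropping wild type replicate 3 raised it to 0.35 (unadjusted p = 0.0265 and adjusted p = 0.395 in limma). In that fit 12% of all genes had an unadjusted p under 0.05. Dropping wild type replicate 2 instead lowered the Flt4 difference to 0.12, the other end of the single-array runs. Prox1 was at 2.46, 2.48 and 2.43 in wild type and at 2.15, 2.46, 2.69 and 2.58 in knockout, and the wild type arrays lay within the knockout range. Its difference was 0.01 (SE 0.16, interval -0.37 to 0.39; limma adjusted p = 0.9995). Prox1 lay above only 7.24% to 24.6% of probe sets on its arrays, and whether it was above background is unknown, since the table gives no detection calls.

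The 3 wild type arrays did not sit alike within the knockout ranges. Wild type replicate 2 lay inside the knockout range for 8 of the 10 genes, with Tie1 above it and Flt4 below it. Wild type replicate 3 was inside for 6, with Pecam1 and Cdh5 below and Kdr and Vwf above. Wild type replicate 1 was inside for 5, with Tek and Pdpn above and Tie1, Lyve1 and Flt4 below. The range over arrays was wider in wild type than in knockout for 7 of the 10 genes. Over all 7 arrays, 4 of the 10 genes had an SD above the median SD of all genes, 0.31, and these were Pecam1, Cdh5, Lyve1 and Pdpn.

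The 10 genes did not share 1 order of arrays. Averaged over the 6 blood endothelial genes, deviations from each gene's mean ran from -0.25 on wild type replicate 3 to 0.17 on knockout replicate 3. Averaged over the 4 lymphatic genes, they ran from -0.16 on knockout replicate 1 to 0.16 on knockout replicate 4. Knockout replicate 4 held the highest value of Pecam1, Cdh5 and Lyve1 and the lowest of Kdr and Tek. By root mean square difference of centred values over the 7 arrays, the closest of the 45 pairs were Tek and Vwf (0.066) and then Kdr and Tie1 (0.15), all genes with small spread. Pecam1 and Cdh5 differed by 0.38 on that measure.

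Over all named genes, those whose centred values lay closest to Cdh5 were Mir3068 (0.12), Ccrl2 (0.17), a non-signalling chemoattractant receptor, and Ces1d (0.18), a carboxylesterase. Their genotype differences were 0.40, 0.71 and 0.47, and each had a limma adjusted p of 0.9995. Closest to Prox1 were Tmem233 (0.043), Cdc14b (0.049), a phosphatase, and Mir302b (0.052), with differences between -0.018 and 0. This likeness covers 7 arrays and ranks 23184 other genes, so it says nothing of shared function.

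**Figure D3:**
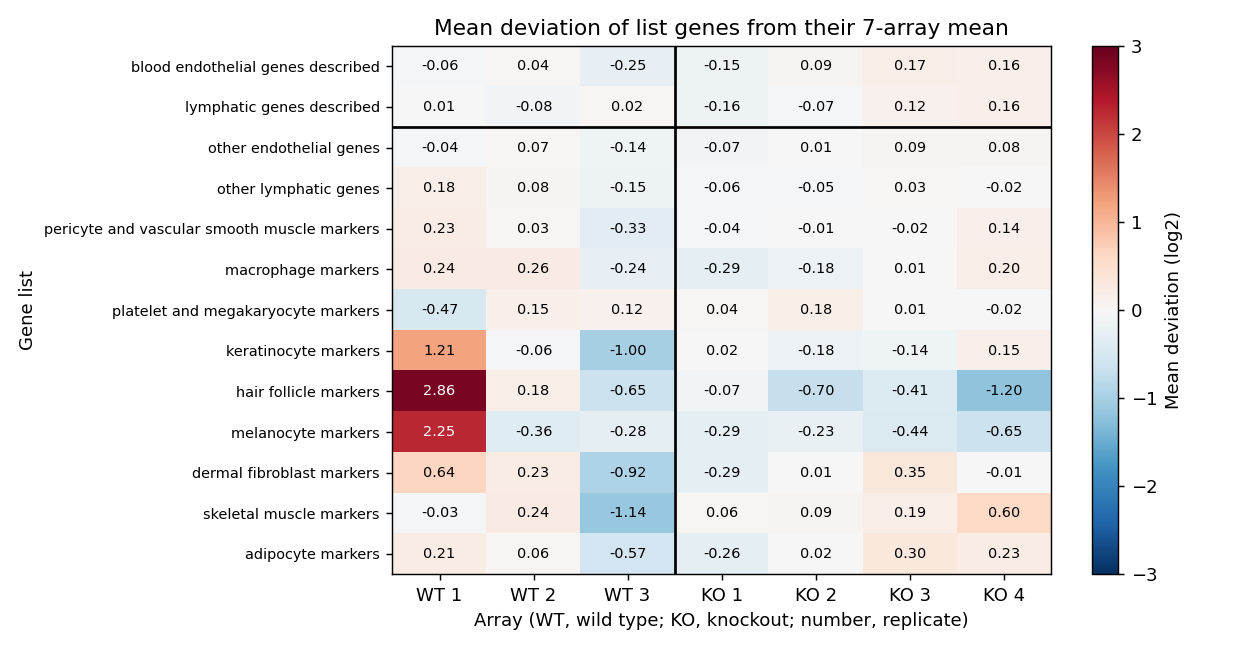
Mean deviation (log2, colour and printed value) of the genes of each list from their own 7-array means, by array, with the blood endothelial and lymphatic genes described here in the top rows. The 2 top rows stay between -0.25 and 0.17, and other lymphatic genes reach 0.18 on wild type replicate 1. Hair follicle markers reach 2.86 on wild type replicate 1 and skeletal muscle markers -1.14 on replicate 3. List means hide wider spread in single genes, such as Pecam1, which ran from 4.72 to 6.76.

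Wider lists of vascular genes were measured to place the 10. The genes named from each wider vascular list are the 3 with its smallest unadjusted p in limma. They were picked from these same data and stand out by construction. Of 39 other endothelial genes, 26 had higher means in knockout and 13 lower, with a median difference of 0.08 against 0.01 over all genes. In limma, 0 of 39 passed either the adjusted or the unadjusted threshold. Over all genes, 0.00431% passed the adjusted and 1.88% the unadjusted threshold, so lists of this size would hold few calls in any case. Gpihbp1, the capillary protein that carries lipoprotein lipase, was at 5.48, 5.75 and 5.38 in wild type and at 5.65, 6.03, 6.74 and 6.11 in knockout, a difference of 0.60 (SE 0.26, unadjusted p = 0.0550 in limma). Procr, the endothelial protein C receptor, was at 3.87, 3.41 and 3.71 in wild type, with knockout arrays between 3.20 and 3.37, a difference of -0.35 (SE 0.15, unadjusted p = 0.0508 in limma). Cd93, a C-type lectin-like receptor of endothelium and myeloid cells, differed by -0.47 (SE 0.21), with values of 4.49 to 5.12 in wild type and 4.02 to 4.56 in knockout. The genotypes did not overlap in Procr (lower in knockout) or in S1pr1 (higher in knockout). Over all genes, 0.815% did not overlap in the lower and 1.1% in the higher direction. S1pr1, a sphingosine phosphate receptor that differed by 0.33, was named outside that rule, also after its values were seen.

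Ligands and partners of the receptors gave no calls either, where 1.88% of all genes passed the unadjusted threshold. Of 19 VEGF and angiopoietin pathway genes, 12 had higher means in knockout and 7 lower, with a median difference of 0.02 and 0 of 19 past either threshold in limma. Angpt1, the activating ligand of Tek, was at 2.74, 3.06 and 2.92 in wild type and at 3.46, 3.07, 3.20 and 3.32 in knockout. Every knockout array was above every wild type array, narrowly so for knockout replicate 2. Over all genes, 1.1% were separated in that direction, and the Angpt1 groups overlapped after quantile normalization. Angpt1 lay above only 22.4% to 45.2% of probe sets on its arrays, and no detection calls were given. The Angpt1 difference was 0.36 (SE 0.15, interval -0.006 to 0.72; unadjusted p = 0.0529 and adjusted p = 0.9995 in limma). Vegfd, a ligand of Flt4, was at 6.30, 7.05 and 5.82 in wild type, with knockout arrays between 6.61 and 7.17, a difference of 0.49 (SE 0.30). Nrp2, a coreceptor for lymphatic VEGF signals, was at 5.45 on wild type replicate 1 and at 3.00 to 3.53 on the other 6 arrays, which gave a difference of -0.88 (SE 0.49).

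The other lymphatic, arterial and venous, and mural lists gave no calls, where 1.88% of all genes passed the unadjusted threshold. Several of their genes were high on 1 wild type array. Of 15 other lymphatic genes measured out of 16 listed, 8 had higher means in knockout and 7 lower, and 0 of 15 passed either threshold in limma. Nrp2 and Vegfd belong to this list too. Gja1, the connexin of lymphatic valves and of epidermis, was at 8.77 on wild type replicate 1 and at 4.32 to 5.28 elsewhere. Of 17 arterial and venous genes, 6 had higher means and 11 lower, and 0 of 17 passed either threshold in limma. Notch1, a receptor of arterial specification, was at 6.52 on wild type replicate 1 and at 4.53 to 5.15 elsewhere, and Efnb2, an arterial ephrin, at 5.89 against 4.06 to 4.55. Hey1, a target of Notch signals, ranged from 4.21 to 4.46 over wild type arrays and from 4.46 to 4.68 over knockout arrays. Of 14 pericyte and vascular smooth muscle markers, 9 had higher means and 5 lower, and 0 of 14 passed either threshold in limma.

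Mural genes were uneven as well. Mcam, an adhesion molecule of pericytes and endothelium, was at 5.96 on wild type replicate 1 and at 4.42 to 4.64 elsewhere. Rgs5, a regulator of G protein signals in pericytes, was at 5.49, 5.49 and 4.67 in wild type and at 5.49, 5.49, 5.43 and 6.26 in knockout. Its difference of 0.45 (SE 0.29) had an adjusted p of 0.9995 in limma. Higd1b, another pericyte marker, differed by 0.19 (SE 0.14).

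**Figure D4:**
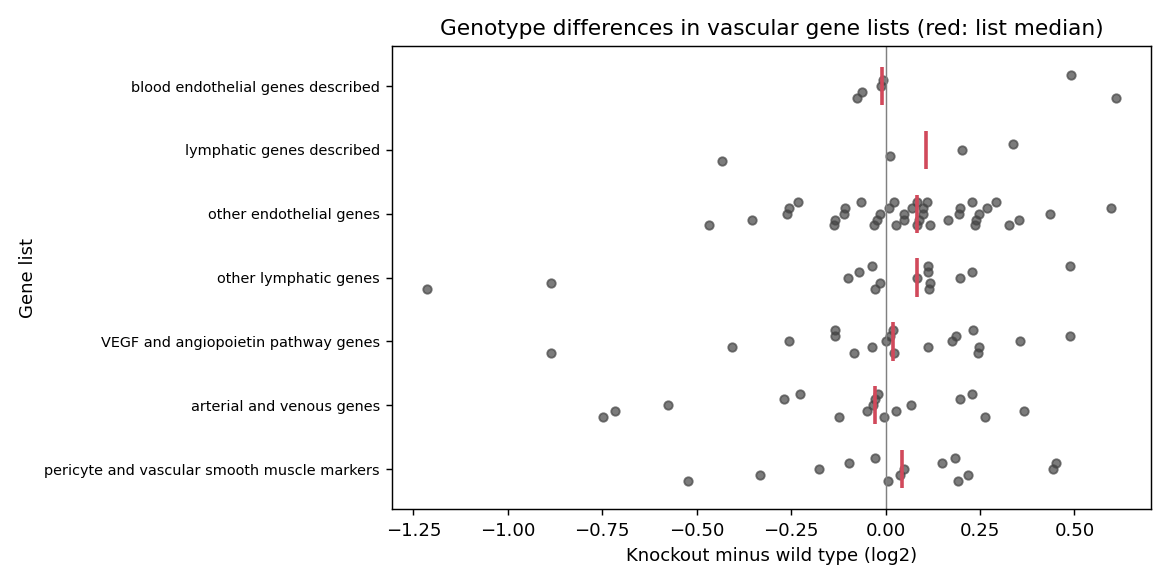
Knockout minus wild type difference (horizontal axis, log2) of each measured gene in the 2 sets described and in 5 wider vascular lists, with a point for each gene and a red line at each list median. List medians lie between -0.03 and 0.11, and the points farthest to the left are Gja1 (-1.21) and Nrp2 (-0.88), each high on wild type replicate 1.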

How the data were processed

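The authors deposited log2 expression values for 7 arrays, 1 for each sample, made with RMA per the submitters' processing notes. Its version, the probe-set definition and the build are not given in the sources used here. Of 25206 probe sets, 23185 had 1 gene symbol in the platform annotation and 2021 were unnamed here. Samples were grouped by the genotype in their titles. Values were used as deposited, without a filter, in limma 3.58.1 under R 4.3.3 (lmFit and eBayes, genotype only, two-sided), with Benjamini-Hochberg adjustment over all 23185 named genes at 0.05. The procedure was tested on simulated data. The genes, the lists and the rule for named genes (the 10 genes, the 3 smallest p in each vascular list, the 3 genes most like Cdh5 and Prox1, and markers for checks) were chosen with earlier results of these data known. Alternatives covered moderation, dim probe sets, scaling, array weights, blocks, the SD of each array as a covariate and arrays left out. Tables and figures used Python 3.11.15 and matplotlib 3.10.9. The number of arrays limits the precision.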

Additional observations from a re-analysis of the deposited data

Results flagged for a closer look

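Tek on knockout replicate 4, at 3.559, was the lowest of the 4 knockout arrays and apart from the other 3, which were tied at 3.571. The gap is 0.013 log2 units. Among 22822 genes with any spread in knockout, 20.6% had an array that stood apart by the same criterion, where chance flags about 1 in 20 groups, and exact ties such as those of Tek meet it by construction.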

How the results depend on the processing

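No endothelial gene passed an adjusted p under 0.05 under any alternative run except array weights, where 1 did: Flt4, at 0.36 with a limma adjusted p of 0.012. In that run 4032 of all genes passed, wild type replicate 2 had a weight of 75.4 against 0.106 and 0.109 for replicates 1 and 3, and the weight estimate stopped before it converged. With weights estimated gene by gene, chosen after seeing the data, Flt4 had an adjusted p of 0.248. Past an unadjusted p under 0.05 there were 3 endothelial genes with array weights: Cdh5, Tie1 at -0.26 and Flt4. In that fit 31.8% of all genes passed. With the array SD as a covariate there were 2, Cdh5 and Pecam1 (7.61% of all genes). Among the other runs that kept all arrays, there was 1 each with gene-by-gene weights (13%), quantile normalization (3.09%), scaling to one SD (2.71%) and the code number as a random block (1.51%). Without wild type replicates 1 and 3, which leaves 1 wild type array, the Flt4 difference was 0.36. With single arrays left out, 0 to 1 endothelial genes passed unadjusted, where 1.07% to 12% of all genes did, and 0 passed adjusted. The 1 gene that passed over all genes was lost (0 genes) with intensity trend and robust moderation, quantile normalization, median centring, the replicate block, the code suffix as a block, the array SD as a covariate, all probe sets, without wild type replicates 1 and 3, and with any single array left out (0 to 0).

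Cdh5, Lyve1, Flt4, Pdpn, Vwf and Tek kept their direction under every alternative in which they were tested. Pecam1 turned to -0.012 with array weights and lay between 0.0018 and 0.73 over the runs that left out 1 array. With the replicate block, in which knockout replicate 4 has no partner, Kdr turned to 0.028, Tie1 to 0.038 and Prox1 to -0.024, and 0 endothelial genes passed either threshold. Same-numbered arrays deviated with correlations of -0.086, -0.145 and 0.034, and differently numbered arrays with correlations from -0.357 to 0.266. Deviations from the means of 3 and 4 arrays depend on each other, so this cannot settle whether same-numbered samples were paired. Unadjusted calls over all genes went from 436 to 251 under the block. Tie1 also turned with quantile normalization (0.012) and the code number as a block (0.0020). Prox1 also turned with quantile normalization (-0.070), median centring (-0.00024), scaling to one SD (-0.0046), array weights (-0.0075), gene-by-gene weights (-0.0067), the code suffix as a block (-0.0099) and without wild type replicates 1 and 3 (-0.012). Over the runs that left out 1 array, Kdr ran from -0.18 to 0.030, Tie1 from -0.13 to 0.13 (it was at -0.28 without wild type replicates 1 and 3) and Prox1 from -0.059 to 0.12. Prox1 was not tested without the dimmest 30% of genes, nor Prox1 and Tek without the dimmest 50%. The causes of these changes were not tested.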
